A study of Mus musculus with 12 samples.

Results

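The 9 genes described here encode parts of the cytokine route that drives astrocyte formation in the embryonic cortex: the ligands Clcf1 and Ctf1, the receptor chains Cntfr, Il6st and Osmr, the kinases Jak1 and Jak2, the transcription factor Stat3 and the feedback inhibitor Socs3. They were chosen by symbol, and each was matched to 1 Ensembl gene identifier on GRCm38, so that 9 of 9 were found among the 55487 genes of the deposited tables. All 9 passed the filter on low counts and were tested among 16798 genes.

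Cytokines of the interleukin-6 family bind ligand-specific receptor chains that assemble with the shared chain gp130, the product of Il6st. Receptor-bound Janus kinases then phosphorylate STAT3, which enters the nucleus and activates genes such as Socs3, whose product shuts the receptor complex off again. In the embryonic cortex cardiotrophin-1 from newborn neurons and the CNTF receptor on progenitors are known for turning progenitors towards astrocytes late in development, when the Gfap promoter becomes open to STAT3.

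RNA came from the dorsal cortex of mouse embryos, where the ventricular zone, the progenitor layer beside the lateral ventricle, was cut out by laser microdissection. The mice carried a cassette in ROSA26 in which a loxP-flanked stop precedes p18 (a cyclin-dependent kinase inhibitor encoded by Cdkn2c) joined by P2A to the fluorescent protein mKO2. Tamoxifen was injected intraperitoneally for all groups to start Cre recombination, and the study asked how such inhibitors are linked to the switch of progenitors from neurons to astrocytes. There were 4 groups of 3 libraries: p18mKO2- at E13.5 and at E16.5, labelled normal, and p18mKO2+ at E13.5 and at E16.5, labelled as overexpressing p18. For the Cre driver and the age at injection the sources used here give nothing. The labels do not say whether replicates were separate embryos or litters, so a p-value here reflects only how these libraries spread, part of which may be technical.

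The 12 libraries held 17101971 to 21837088 estimated reads in genes. Cdkn2c itself stood at 15.1 to 32.6 CPM (read counts scaled for library size) and did not pass the count test with p18 at E13.5 or at E16.5, so the counts did not separate the labelled groups. The 3 E13.5 p18mKO2- libraries all held Xist and almost no Y-linked transcripts, each other group had at least 1 library with Y-linked transcripts and almost no Xist, and replicate 3 of p18mKO2+ at each stage held both. A ribosomal RNA gene held 1.66 to 15.2% of the scaled library size used for CPM. At E16.5 it held 7.06 to 15.2% in p18mKO2- and 1.66 to 3.96% in p18mKO2+ libraries, so this share went with the p18 label there. At E13.5 it held 5.24 to 8.8% in p18mKO2- and 2.62 to 6.58% in p18mKO2+ libraries, which overlapped. Radial glia markers were present throughout, with a summed level of 1950 to 3860 TPM (which also corrects for gene length) for 12 genes, among them Fabp7 and Vim. Where a call whose size of change is given below depends on the libraries of both sexes, its value without them is given. The other called genes of the marker and pathway lists, which are counted or named without values, were not checked singly in this way. Their calls may therefore depend on these libraries.

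Between E13.5 and E16.5 in p18mKO2- tissue, 6 of the 9 genes changed, while 29.8% of all genes tested were called (16.4% higher and 13.4% lower). Jak1, Jak2 and Osmr rose and Clcf1, Cntfr and Stat3 fell, so the set did not move in 1 direction. Of these, Clcf1 reached 10 reads in every library of the E13.5 groups only, and Osmr in every group but E13.5 p18mKO2-, so each passed the filter on low counts through groups where it was high, and their calls lend the count no support. In p18mKO2+ tissue the same interval changed 1 of 9 genes, Cntfr, which fell, against 1.64% of all genes (1.08% higher and 0.554% lower). At E13.5, p18mKO2+ libraries differed from p18mKO2- libraries in 2 of 9 genes, Jak2 (higher) and Cntfr (lower), against 10.8% of all genes (7.29% higher and 3.49% lower). At E16.5 edgeR's quasi-likelihood test called 0 of 9 genes and 0% of all genes. At an unadjusted p under 0.05 it gave 1 of the 9 (Cntfr) and 426 of the 16798 genes tested. That is less than the share of 0.05 expected where no gene differs. DESeq2 and limma-voom called 13 and 2 genes in all and 0 of the 9. The p18 effect differed between the stages for 2 of 9 genes, Cntfr (positive) and Jak2 (negative), against 2.7% of all genes (0.298% positive and 2.4% negative). A call means a Benjamini-Hochberg adjusted p under 0.05 over all genes tested, and changes are log2 values with their SE. Where groups are said not to overlap, this describes their libraries only. The share of all genes that separate in this way was not counted, so it adds nothing to an effect that was not called. The median change of the 9 genes was -0.04 for p18 at E13.5, -0.17 for stage in p18mKO2- and -0.08 for stage in p18mKO2+, beside 0.01, -0.02 and -0.03 over all genes.

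**Figure D1:**
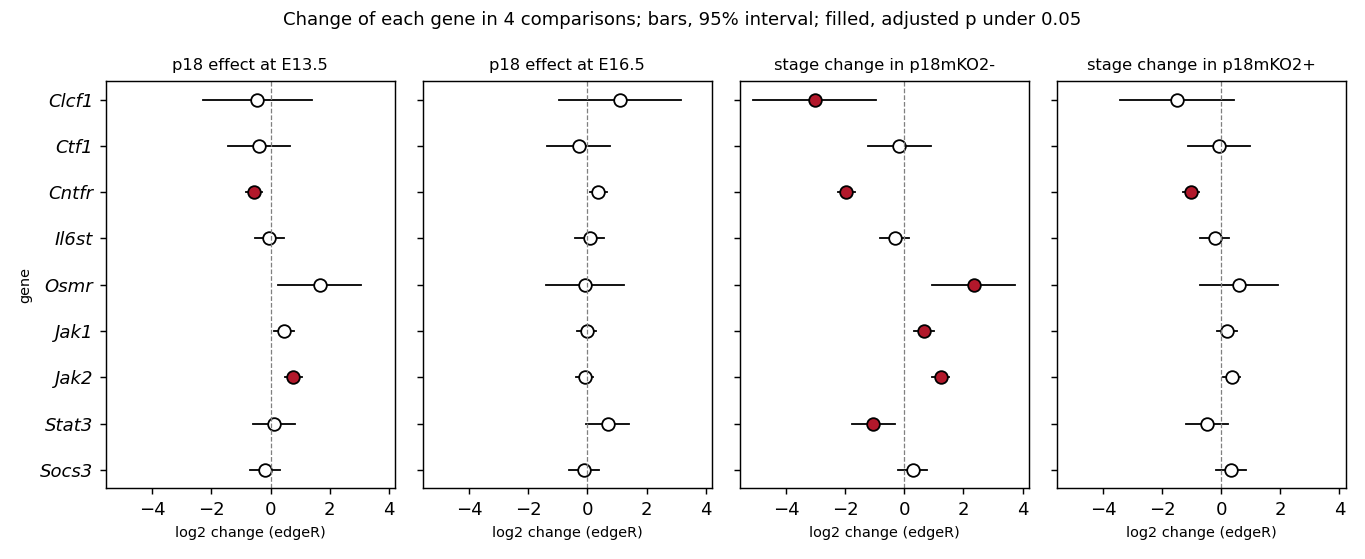
Log2 change of each of the 9 genes (x axis) in 4 comparisons (panels), with the 95% interval of the edgeR fit as a bar and filled points where the adjusted p was under 0.05. Stage changes are E16.5 against E13.5 and p18 effects are p18mKO2+ against p18mKO2-, 3 libraries a group. Filled points are 6 in the stage change of p18mKO2- tissue, 1 in that of p18mKO2+ tissue, 2 for p18 at E13.5 and 0 for p18 at E16.5.

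Markers of other cells moved in the same comparisons. Of 10 neuron genes, 10 rose with stage in p18mKO2- tissue and 6 rose with p18 at E13.5. Their summed level was 1210 to 1530 TPM at E13.5 p18mKO2-, 2810 to 3470 at E13.5 p18mKO2+, 3880 to 4560 at E16.5 p18mKO2- and 4290 to 4830 at E16.5 p18mKO2+, with Tubb3 and Neurod6 the most abundant and no marker at 0. Of 12 radial glia genes, 9 fell and 1 rose with stage in p18mKO2- tissue, and 6 fell with p18 at E13.5. Their summed level was 3350 to 3860, 2450 to 3370, 1950 to 3060 and 2860 to 3290 TPM in the same group order. Of 5 intermediate progenitor genes, 4 fell with stage in p18mKO2- tissue (Btg2, Gadd45g, Neurog1 and Neurog2) and 2 fell with p18 at E13.5 (Gadd45g and Neurog1), and their sums were 448 to 723, 320 to 541, 262 to 439 and 348 to 407 TPM. Of 5 oligodendrocyte lineage genes, 3 rose with stage in p18mKO2- tissue (Cspg4, Olig1 and Sox10) and 1 rose with p18 at E13.5 (Olig1). Their sums were 5.45 to 14.2, 15.4 to 20.9, 17.8 to 20.3 and 23.2 to 38.8 TPM, so that E13.5 p18mKO2- lay below the other groups. Of 10 endothelial and pericyte genes, 3 rose with stage in p18mKO2- tissue and 2 with p18 at E13.5, and their sum ran from 51.9 to 78.6 TPM at E13.5 p18mKO2- and from 93.8 to 156 TPM over the other groups. Of 7 ventral telencephalon genes 1, Gad1, rose with p18 at E13.5 and 3 fell with stage in p18mKO2- tissue, and their sum was 80.4 to 222, 288 to 416, 88.1 to 103 and 194 to 350 TPM in the group order above. With stage in p18mKO2- tissue 3 of 6 meningeal genes fell, 3 of 7 genes of Cajal-Retzius cells, hem and choroid plexus fell, and of 8 erythroid genes 3 fell and 1 rose. The sum for Cajal-Retzius cells, hem and choroid plexus varied widely between libraries, with Ttr the most abundant. It was 61.6 to 526, 122 to 1060, 254 to 743 and 491 to 2670 TPM in the group order above. With p18 at E13.5 the erythroid genes Hba-x and Hbb-y fell. Microglia genes summed to 38.7 to 72.0 TPM over all libraries, with 2 of 8 higher with stage in p18mKO2- tissue. The part of these cell types in the changes below was not tested, and in bulk tissue fewer cells of a type and less RNA per cell cannot be told apart.

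By TPM, which allows levels of different genes to be set side by side, Cntfr was the most abundant of the 9 genes at E13.5. It stood at 117 ± 5.74 TPM in p18mKO2- (SD, n = 3 here and for all group means) and at 88.2 ± 8.85 TPM in p18mKO2+, above Jak2 in every library of both groups. Behind it in E13.5 p18mKO2- tissue came Jak2 at 11.7 to 14.7, Jak1 at 12.6 ± 2.56, Stat3 at 5.67 to 13.8, Il6st at 7.71 ± 2.14 and Socs3 at 6.11 ± 1.25 TPM, and each of these overlapped its neighbour in the order. Ctf1 at 2.67 ± 0.762 and Clcf1 at 1.38 ± 0.956 TPM overlapped each other, and Osmr was lowest at 0.177 ± 0.14 TPM. At E16.5 the leading place was shared: in p18mKO2- tissue Jak2 stood at 31.3 ± 0.548 and Cntfr at 29.1 ± 5.1 TPM, and in p18mKO2+ tissue Cntfr stood at 46.0 ± 9.13 and Jak2 at 35.7 ± 5.21 TPM, with overlapping libraries in both. Jak1 followed these genes in every group, and below it Stat3, Il6st and Socs3 overlapped their neighbours at E16.5. Clcf1 was the lowest at E16.5, at 0.11 ± 0.0964 and 0.347 ± 0.258 TPM in p18mKO2- and p18mKO2+, and there Osmr (0.877 ± 0.318 and 1.01 ± 0.306 TPM) stood above it without overlap.

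Among the ligands, Clcf1, cardiotrophin-like cytokine factor 1, a ligand of the CNTF receptor (GRCm38 chromosome 19, 4214238 to 4223490, plus strand), was read sparsely. Its reads were 18, 30 and 41 in E13.5 p18mKO2- replicates 1 to 3, 30, 30 and 19 in E13.5 p18mKO2+, 5, 0 and 5 in E16.5 p18mKO2- and 9, 14 and 3 in E16.5 p18mKO2+. Every E16.5 library lay below every E13.5 library. In p18mKO2- tissue Clcf1 fell by 3.04 ± 0.97 on the log2 scale (edgeR adjusted p = 0.0297). The call was lost, with the change between -3.49 and -2.44, on leaving out E13.5 p18mKO2- replicate 2 or 3 or any of the 3 E16.5 p18mKO2- libraries (edgeR adjusted p = 0.0536 to 0.0863), and in a fit of the 6 libraries alone (-3.03, edgeR adjusted p = 0.0609). In p18mKO2+ tissue the change was -1.49 ± 0.89 (edgeR adjusted p = 0.492), and the difference between the tissues was 1.55 ± 1.29 (edgeR adjusted p = 0.626). The p18 effect was -0.45 at E13.5, with a 95% interval from -2.29 to 1.4, and 1.11 at E16.5, with an interval from -0.97 to 3.18.

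Ctf1 encodes cardiotrophin-1 (chromosome 7, 127712736 to 127718192, plus strand). Its reads were 38, 49 and 27 in E13.5 p18mKO2-, 28, 44 and 32 in E13.5 p18mKO2+, 38, 25 and 33 in E16.5 p18mKO2- and 43, 26 and 22 in E16.5 p18mKO2+. All 4 groups overlapped, and no comparison was called: the stage change in p18mKO2- tissue was -0.17 with a 95% interval from -1.23 to 0.89, and the p18 effect at E13.5 was -0.39 with an interval from -1.45 to 0.67. The deposited TPM gave another picture, at 2.67 ± 0.762 in E13.5 p18mKO2- and 6.75 ± 2.23 in E16.5 p18mKO2-, without overlap. The length that the authors' table assigned to Ctf1, an average over its transcripts by abundance, was 1352 bases in all 3 E13.5 p18mKO2- libraries and between 437.5 and 1000 bases in the other 9. The longest annotated transcript of Ctf1 has 1352 bases, so the TPM difference came with another assigned length while the reads overlapped.

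The other ligands fixed for comparison were few in reads. Of 10 ligand genes described 5 passed the filter. Cntf, ciliary neurotrophic factor, the most abundant by TPM of those outside the 9 genes, stood at 5.02 ± 1.55 TPM in E13.5 p18mKO2- and 2.27 ± 0.942 TPM in E16.5 p18mKO2-, and its change of -1.08 ± 0.60 was not called (edgeR adjusted p = 0.201). Clcf1 was the only one of the 5 called by edgeR in any of the 4 comparisons.

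**Figure D2:**
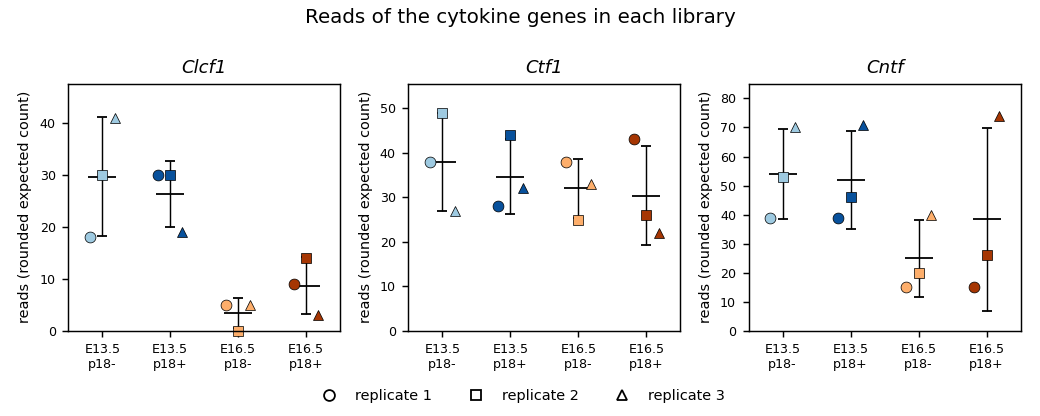
Reads (rounded expected counts, y axis) of 3 ligand genes in each of the 12 libraries, with group means and SD as bars and replicates by symbol. Clcf1 lies between 18 and 41 reads in the E13.5 libraries and between 0 and 14 at E16.5, and the groups of Ctf1 and Cntf overlap.

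Among the receptors, Cntfr encodes the GPI-anchored chain that binds CNTF and the Clcf1 complex (chromosome 4, 41657498 to 41697089, minus strand). It stood at 126, 130 and 143 CPM in E13.5 p18mKO2- replicates 1 to 3, at 80.5, 99.8 and 89.8 CPM in E13.5 p18mKO2+, at 37.3, 32.6 and 32.7 CPM in E16.5 p18mKO2- and at 46.0, 47.4 and 39.1 CPM in E16.5 p18mKO2+. The 4 groups did not overlap in any of the comparisons made. Cntfr fell with stage by 1.96 ± 0.13 in p18mKO2- tissue, a 3.88-fold change (edgeR adjusted p = 5.17e-07), and by 1.03 ± 0.13 in p18mKO2+ tissue, a 2.04-fold change (edgeR adjusted p = 0.00154). Both calls held in 16 of 16 alternative analyses.

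The estimated p18 effect on Cntfr was opposite in sign at the stages, and only the E13.5 effect was called. At E13.5 Cntfr was lower in p18mKO2+ by a log2 change of -0.56 ± 0.13 (edgeR adjusted p = 0.014), and lower in 3 of 3 libraries than any p18mKO2- library. That call was lost without p18mKO2+ replicate 1 (-0.49, edgeR adjusted p = 0.0862), without p18mKO2+ replicate 3 (-0.56, 0.0594), with the ribosomal RNA gene as a covariate (-0.53, 0.0799) and without the libraries of both sexes (-0.56, 0.0631). At E16.5 Cntfr was 0.37 ± 0.13 higher in p18mKO2+, with 3 of 3 libraries above every p18mKO2- library, which did not pass the adjustment over all genes (edgeR unadjusted p = 0.0141, adjusted p = 1). The difference between these effects was 0.93 ± 0.18 (edgeR adjusted p = 0.0181). It was lost without E13.5 p18mKO2+ replicate 1 (edgeR adjusted p = 0.0687), E16.5 p18mKO2+ replicate 1 (0.0617) or replicate 2 (0.0826), and without the libraries of both sexes (0.0548), where its size was 0.86 to 1.02.

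Osmr encodes the signalling chain for oncostatin M (chromosome 15, 6813577 to 6874969, minus strand) and was read at low depth. Its reads were 19, 14 and 1 in E13.5 p18mKO2-, 39, 33 and 56 in E13.5 p18mKO2+, 40, 82 and 46 in E16.5 p18mKO2- and 45, 76 and 60 in E16.5 p18mKO2+. The E13.5 p18mKO2- libraries were the lowest 3 of the 12. With stage Osmr rose by 2.34 ± 0.66 in p18mKO2- tissue (edgeR adjusted p = 0.0155). The call was lost without E16.5 p18mKO2- replicate 2 (2.07, edgeR adjusted p = 0.0552) and in a fit of the 6 libraries alone (2.35, 0.0656). In p18mKO2+ tissue the stage change was 0.60 ± 0.61 (edgeR adjusted p = 0.737). At E13.5 the p18 effect of 1.66 ± 0.65 was not called by edgeR (adjusted p = 0.124) and was called by DESeq2 (1.67, adjusted p = 0.0413). The E16.5 and E13.5 effects of p18 differed by -1.74 ± 0.89 (edgeR adjusted p = 0.358). E13.5 p18mKO2- replicate 3, with 1 read, was the only library with fewer than 10 reads of Osmr.

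Il6st encodes gp130, the shared signalling chain (chromosome 13, 112464070 to 112510086, plus strand). It stood at 46.6, 45.0 and 28.4 CPM in E13.5 p18mKO2-, at 46.2, 34.2 and 36.6 in E13.5 p18mKO2+, at 34.8, 35.8 and 25 in E16.5 p18mKO2- and at 37.6, 38.3 and 24.7 in E16.5 p18mKO2+. All groups overlapped and no comparison was called. The p18 effect was -0.04 at E13.5 (95% interval -0.53 to 0.46) and 0.07 at E16.5 (-0.42 to 0.57), and the stage change was -0.33 (-0.82 to 0.17) in p18mKO2- and -0.22 (-0.71 to 0.27) in p18mKO2+ tissue.

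Of 8 listed receptor genes 7 were tested, and Cntfr and Osmr were the only ones called in any comparison. Among the ligand-binding chains Cntfr made up most of the summed TPM: 89.3 ± 3.16% in E13.5 p18mKO2-, 89.0 ± 1.44% in E13.5 p18mKO2+, 72.0 ± 3.76% in E16.5 p18mKO2- and 80.1 ± 1.34% in E16.5 p18mKO2+. At E16.5 the p18mKO2- libraries (69.8 to 76.4%) lay below the p18mKO2+ libraries (78.6 to 81.2%). Il11ra1, the interleukin-11 receptor chain and the next most abundant ligand-binding chain by TPM, made up 8.83 ± 3.37%, 6.48 ± 1.56%, 16.6 ± 4.07% and 11.4 ± 2.02% in the same order, and its counts were not called in any comparison. Its assigned length was 1848, 874 and 544.8 bases in E13.5 p18mKO2- replicates 1 to 3. There its TPM was 6.36, 12.1 and 17.1, while its CPM was 6.85, 5.48 and 4.27. The shares of all chains in that group rest on these lengths too. Lifr, the LIF receptor that pairs with gp130 in the CNTF receptor complex, stood at 2.26 ± 0.315 TPM in E13.5 p18mKO2- and at 3.42 to 3.54 TPM on average in the other groups. Its stage change of 0.55 ± 0.21 in p18mKO2- tissue and its p18 effect of 0.57 ± 0.21 at E13.5 were not called (edgeR adjusted p = 0.0666 and 0.102).

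**Figure D3:**
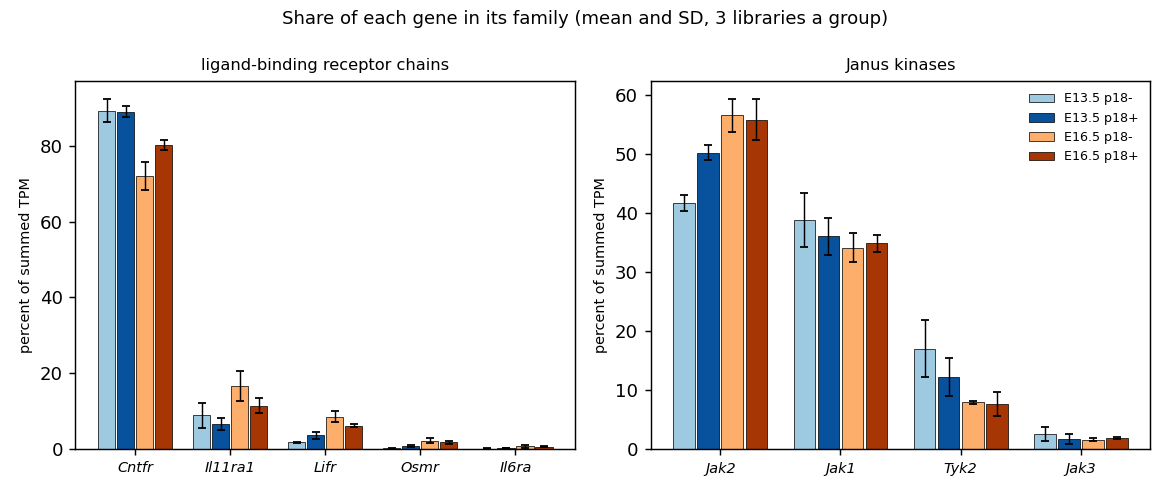
Share of each gene in the summed TPM of its family (percent, y axis), for ligand-binding receptor chains on the left and Janus kinases on the right, as mean and SD of 3 libraries for each of the 4 groups. Cntfr holds 89.3% of the receptor sum at E13.5 p18mKO2- and 72.0% at E16.5 p18mKO2-, and Jak2 holds 41.7% and 56.5% of the kinase sum in the same groups.

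Of the kinases, Jak2 showed the widest change (chromosome 19, 29251828 to 29313080, plus strand). It stood at 46.2, 43.5 and 39.0 CPM in E13.5 p18mKO2-, at 78.8, 63.0 and 78.1 CPM in E13.5 p18mKO2+, at 90.6, 96.2 and 114 CPM in E16.5 p18mKO2- and at 94.4, 96.4 and 91.4 CPM in E16.5 p18mKO2+. The E13.5 p18mKO2- libraries were the lowest, the E13.5 p18mKO2+ libraries lay between them and E16.5, and the E16.5 groups overlapped. Jak2 rose with stage in p18mKO2- tissue by 1.23 ± 0.14, or 2.34-fold (edgeR adjusted p = 2.25e-05), and was higher with p18 at E13.5 by 0.77 ± 0.13, or 1.71-fold (edgeR adjusted p = 0.00304).

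Both of these calls of Jak2 held in every alternative run, 16 of 16 for the stage change and 17 of 17 for p18 at E13.5, where the effect ranged from 0.62 to 0.87. Without the libraries of both sexes the p18 effect was 0.72 (edgeR adjusted p = 0.0216), and a covariate for Y-linked expression gave 0.85 (0.0115). In p18mKO2+ tissue the stage change of 0.36 ± 0.13 was not called (edgeR adjusted p = 0.214), and at E16.5 the p18 effect was -0.09, with a 95% interval from -0.38 to 0.19. The p18 effect was thus 0.87 ± 0.19 smaller at E16.5 than at E13.5 (edgeR adjusted p = 0.0281). This difference lost its call without E13.5 p18mKO2- replicate 2 or 3, E13.5 p18mKO2+ replicate 1 or 3, or any of the 3 E16.5 p18mKO2+ libraries (edgeR adjusted p = 0.0517 to 0.0878), and without the libraries of both sexes (-0.78, 0.146).

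Jak1 (chromosome 4, 101152367 to 101265282, minus strand), the kinase on which gp130 signalling mainly depends, stood at 45.8, 34.8 and 32.7 CPM in E13.5 p18mKO2- and at 57.3, 47.1 and 49.9 CPM in E13.5 p18mKO2+. At E16.5 the levels were 59.4, 62.1 and 58.1 CPM in p18mKO2- and 64.0, 62.1 and 49.4 CPM in p18mKO2+. The E13.5 p18mKO2- libraries lay below all other libraries. The rise with stage in p18mKO2- tissue was 0.66 ± 0.16 (edgeR adjusted p = 0.00562) and was called in 16 of 16 alternatives. The p18 effect at E13.5 was 0.44 ± 0.16 and was not called (edgeR adjusted p = 0.0872). It passed without E13.5 p18mKO2- replicate 1 (0.60, edgeR adjusted p = 0.0435), the highest library of its group, and with the replicate number as a block (0.45, 0.0402). Jak1 overlaps Raver2 on the opposite strand, whose mean level was 19.4 CPM, and the sources used here do not say whether reads were counted by strand.

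Within the Janus kinase family the share of Jak2 in the summed TPM was 41.7 ± 1.32% in E13.5 p18mKO2-, 50.2 ± 1.27% in E13.5 p18mKO2+, 56.5 ± 2.85% in E16.5 p18mKO2- and 55.8 ± 3.5% in E16.5 p18mKO2+. Jak1 held 38.8 ± 4.57%, 36.0 ± 3.16%, 34.1 ± 2.39% and 34.8 ± 1.5%. Tyk2 held 17 ± 4.79% in E13.5 p18mKO2- and 7.87 ± 0.231% in E16.5 p18mKO2-, with a count change of -0.23 ± 0.28 that was not called (edgeR adjusted p = 0.587). The larger share of Jak2 thus came with more Jak2 reads, while the Tyk2 groups overlapped by CPM.

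Stat3, the transcription factor of the route (chromosome 11, 100885098 to 100939540, minus strand), stood at 31.7, 29.6 and 15.9 CPM in E13.5 p18mKO2-, at 34.2, 27.0 and 22 in E13.5 p18mKO2+, at 16.9, 13.1 and 7.24 in E16.5 p18mKO2- and at 21.1, 25.4 and 13 in E16.5 p18mKO2+. Replicate 3 was the lowest library in 4 of 4 groups, and the groups overlapped in every comparison. In p18mKO2- tissue Stat3 fell with stage by 1.05 ± 0.34 (edgeR adjusted p = 0.0309). The call was lost without E13.5 p18mKO2- replicate 1 (-0.86, edgeR adjusted p = 0.124) or replicate 2 (-0.94, 0.0936) and without E16.5 p18mKO2- replicate 2 (-1.09, 0.0688) or replicate 3 (-0.77, 0.105). It was also lost in a fit of the 6 libraries alone (0.0535) and with Y-linked expression (0.0668) or the ribosomal RNA gene (0.0648) as a covariate. The p18 effect on Stat3 was 0.11 at E13.5 (95% interval -0.61 to 0.82) and 0.68 at E16.5 (-0.05 to 1.4), and neither was called. The difference between these effects was 0.57 ± 0.47 (edgeR adjusted p = 0.628).

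Deposited TPM of Stat3 differed from its counts in 2 libraries. E13.5 p18mKO2+ replicate 1 had 29.3 TPM and E16.5 p18mKO2- replicate 2 had 11.2 TPM, the highest of their groups, with assigned lengths of 2148 and 2029 bases against 3456 to 4516 bases in the other 10. By CPM E13.5 p18mKO2+ replicate 1 was also the highest of its group, but E16.5 p18mKO2- replicate 2 was the middle one. Annotated protein-coding transcripts of Stat3 run from 2506 to 6042 bases. Cntfr is shown for contrast, since its assigned length stayed between 1838 and 1948 bases in all libraries.

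**Figure D4:**
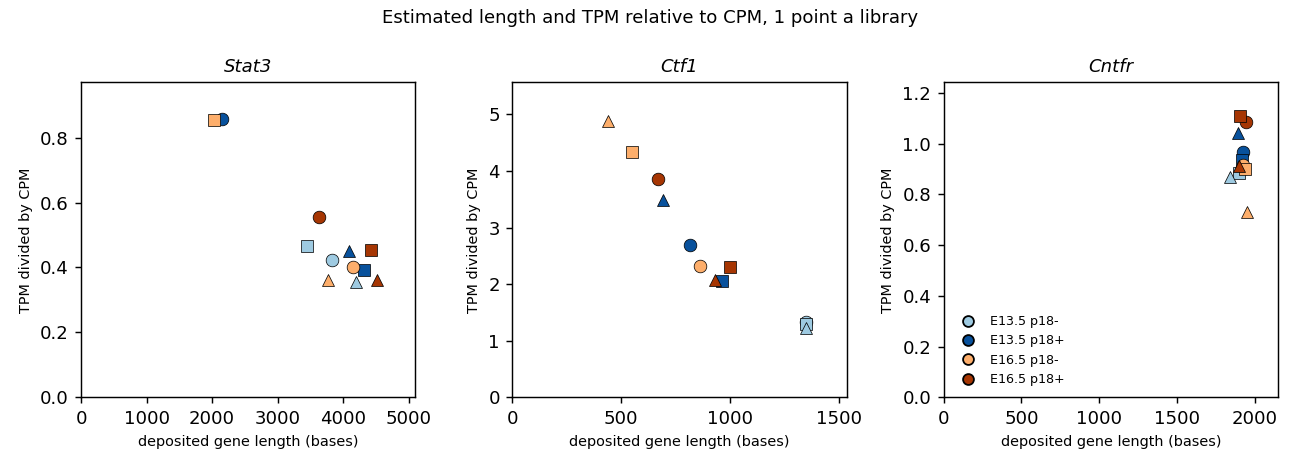
TPM divided by CPM (y axis) against the gene length in the deposited tables (bases, x axis) for Stat3, Ctf1 and Cntfr, 1 point a library, coloured by group and with replicates 1, 2 and 3 as circle, square and triangle. The 2 Stat3 points at 2148 and 2029 bases stand above the rest, Ctf1 sits at 1352 bases in the 3 E13.5 p18mKO2- libraries and lower elsewhere, and the lengths of Cntfr lie between 1838 and 1948 bases.

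All 11 listed Janus kinase and STAT genes were tested. With stage in p18mKO2- tissue 2 rose, Jak1 and Jak2, and 3 fell, Stat3, Stat4 and Stat5b, with a median of -0.23. Stat5b, a STAT of growth hormone and prolactin signalling, fell by 1.11 ± 0.24 (edgeR adjusted p = 0.003). Stat4, a STAT of interleukin-12 signalling, fell by 2.41 ± 0.58 (edgeR adjusted p = 0.00607), from 3.46 ± 2.06 to 0.56 ± 0.173 TPM. Stat2, the most abundant of the other members by TPM, stood at 8.56 ± 3.01 and 10.2 ± 1.18 TPM in the same groups and was not called. With p18 at E13.5 only Jak2 of the 11 was called, and in p18mKO2+ tissue 0 of 11 were called between the stages by edgeR.

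Socs3, the feedback inhibitor that binds gp130 and the Janus kinases and is itself a STAT3 target (chromosome 11, 117966079 to 117970047, minus strand), passed the test in no comparison. It stood at 7.16, 10.8 and 11.1 CPM in E13.5 p18mKO2-, at 9.07, 9.42 and 7.21 in E13.5 p18mKO2+, at 13, 12.4 and 9.91 in E16.5 p18mKO2- and at 10.6, 9.13 and 12.5 in E16.5 p18mKO2+. The groups overlapped throughout. The stage change was 0.28 (95% interval -0.23 to 0.78) in p18mKO2- and 0.33 (-0.18 to 0.83) in p18mKO2+ tissue, and the p18 effect was -0.18 (-0.68 to 0.33) at E13.5 and -0.13 (-0.63 to 0.38) at E16.5. DESeq2 and limma-voom also called none of these.

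All 16 listed inhibitors of the route were tested, and with stage in p18mKO2- tissue 3 rose (Cish, Socs5 and Socs7) and 2 fell (Ptpn2 and Socs6). Socs7 rose by 0.99 ± 0.18, from 61.2 ± 11.3 to 121 ± 21 CPM (edgeR adjusted p = 0.000827). Socs5 rose by 0.63 ± 0.17, from 20.7 ± 1.77 to 31.9 ± 3.35 CPM (edgeR adjusted p = 0.0112), a call lost without E16.5 p18mKO2- replicate 2 (edgeR adjusted p = 0.0505). With p18 at E13.5 the Socs7 difference of 0.52 ± 0.17 was not called (edgeR adjusted p = 0.0724). Pias2, the most abundant of the list by TPM and a SUMO ligase of the PIAS family, stood at 91.1 ± 10.0 and 95.2 ± 18.9 CPM in p18mKO2- tissue at E13.5 and E16.5 and was not called. Of the 16, edgeR called 0 with p18 at either stage and 0 with stage in p18mKO2+ tissue.

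**Figure D5:**
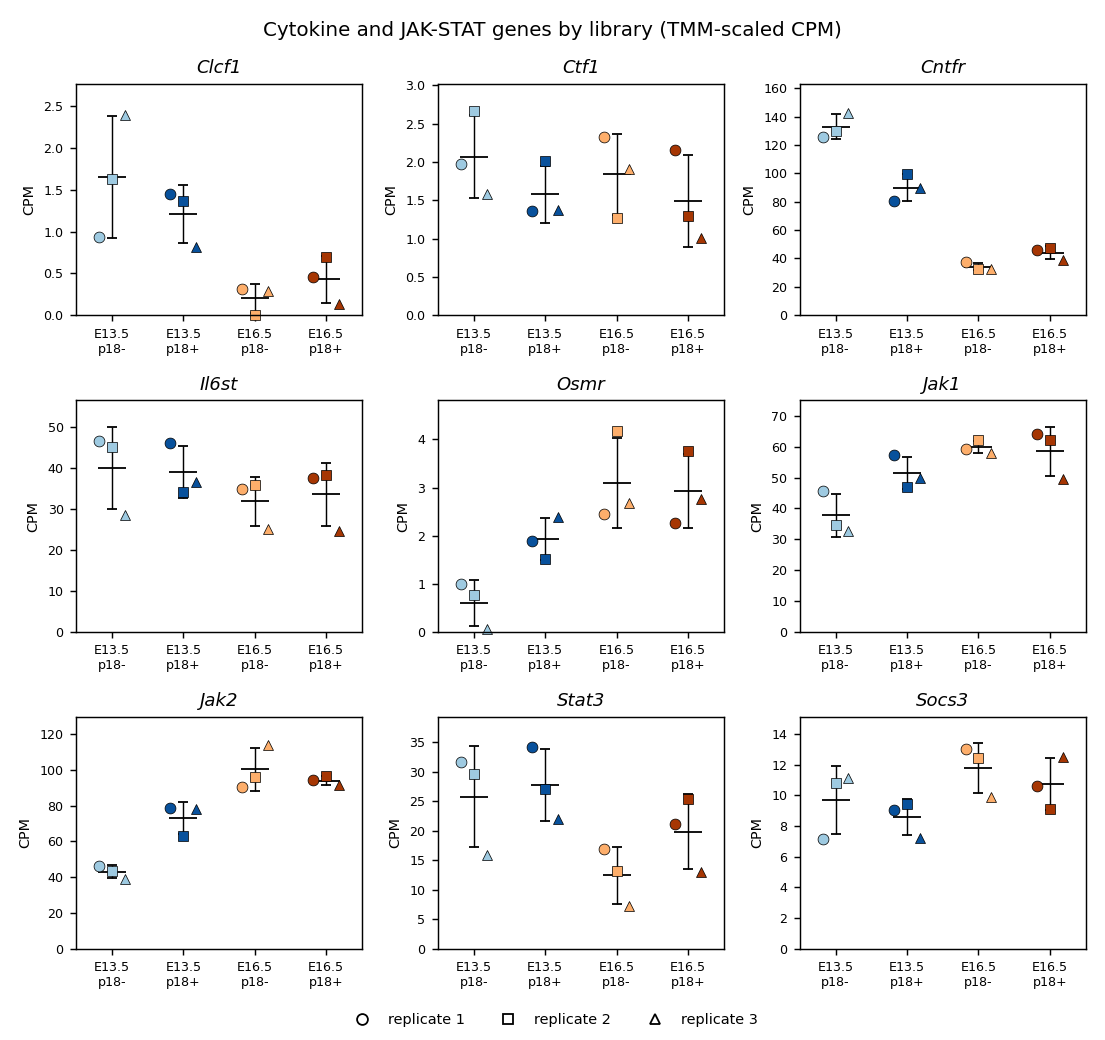
Level of each of the 9 genes (CPM, y axis) in the 12 libraries by group, with replicates by symbol, the group mean as a dash and the SD as a bar. Cntfr lies highest at E13.5 p18mKO2- (126 to 143 CPM) and lowest at E16.5 p18mKO2- (32.6 to 37.3 CPM), Jak2 runs the other way (39.0 to 46.2 and 90.6 to 114 CPM), and the groups of Ctf1, Il6st and Socs3 overlap.

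Promoter sequence is shown for Socs3 and for Gfap, the astrocyte intermediate filament gene and a classical STAT3 target, since these hold the letters TTCNNNGAA that STAT proteins favour. That motif reads the same on both strands, and it was searched in RefSeq promoter windows of 300 bases (GRCm38.p6, 250 before to 50 after a start site). It is present in 8.3% of all 32851 windows and in at least 1 window of 9.55% of 27025 genes. Of the 9 genes 8 had a window, all but Clcf1, and 1 of these, Socs3, held the motif. Outside the 9 genes, Gfap and Lifr were looked at, and the windows of Lifr held no match. Capitals mark the match, which begins 154 bases before the RefSeq start site of Socs3 and 2 bases before that of Gfap. Both stretches are on the minus strand and are written 5′ to 3′.
Socs3, chr11:117969367-117969616: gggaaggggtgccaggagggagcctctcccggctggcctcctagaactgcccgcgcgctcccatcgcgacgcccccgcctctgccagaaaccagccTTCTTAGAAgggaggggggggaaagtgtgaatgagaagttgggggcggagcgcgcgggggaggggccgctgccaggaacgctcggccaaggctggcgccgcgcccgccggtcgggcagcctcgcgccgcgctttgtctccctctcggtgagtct
Gfap, chr11:102897194-102897450: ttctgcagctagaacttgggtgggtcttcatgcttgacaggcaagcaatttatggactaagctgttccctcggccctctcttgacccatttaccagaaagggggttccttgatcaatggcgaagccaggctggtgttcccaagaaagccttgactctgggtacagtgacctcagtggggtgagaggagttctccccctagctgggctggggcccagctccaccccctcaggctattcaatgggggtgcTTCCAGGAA
A match of letters describes the sequence and is no measured binding site.

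The gene with the second sequence, Gfap, was read mostly in E16.5 libraries. Its reads were 0, 0 and 0 in E13.5 p18mKO2-, 3, 2 and 8 in E13.5 p18mKO2+, 16, 15 and 19 in E16.5 p18mKO2- and 40, 49 and 61 in E16.5 p18mKO2+. The 4 groups did not overlap. Counting 3 reads over the group as the floor for a count of 0 and taking the other group's reads as they are, Gfap was at least 17.2-fold higher in E16.5 than in E13.5 p18mKO2- tissue (edgeR adjusted p = 0.000687) and at least 3.6-fold higher in E13.5 p18mKO2+ (edgeR adjusted p = 0.0257). The exact 95% counting intervals of these ratios, which also cover the error of the other group's reads and nothing beyond counting, began lower, at 13.4 and 2.53. The gene reached 10 reads only in E16.5 libraries, so it passed the filter on low counts through the stage where it was high. In p18mKO2+ tissue it rose with stage by 3.6 ± 0.76 (edgeR adjusted p = 0.0417). At E16.5 its p18 effect of 1.35 ± 0.68 was not called (edgeR adjusted p = 1).

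The p18 call of Gfap at E13.5 rested on 13 reads. It was lost without any 1 of the E13.5 p18mKO2- libraries or without E13.5 p18mKO2+ replicate 3 (edgeR adjusted p = 0.0533 to 0.09), with the Y-linked (0.0657) or ribosomal RNA (0.102) covariate, without the libraries of both sexes (0.132), with a replicate block within stage (0.0781) and under limma-voom (0.172). The stage call in p18mKO2+ tissue was lost without E13.5 p18mKO2+ replicate 1 or 2, without any 1 of the E16.5 p18mKO2+ libraries (edgeR adjusted p = 0.106 to 0.171), with the Y-linked (0.0785) or ribosomal RNA (0.0847) covariate and without the libraries of both sexes (0.121). The summed level of 8 astrocyte markers, Gfap among them, was 247 to 301, 182 to 329, 221 to 316 and 272 to 357 TPM in the 4 groups, and Gfap and S100b were the markers at 0 in E13.5 p18mKO2-. Of the 7 markers tested, 2 rose with p18 at E13.5 (Aldh1l1 and Gfap) and 1 fell (Gja1). With stage in p18mKO2- tissue 3 rose (Aldh1l1, Gfap and Sparcl1) and 1 fell (Gja1). The same 3 rose with stage in p18mKO2+ tissue, where 0 fell.

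Of 18 listed STAT3 response and astrocyte target genes 14 were tested. With stage in p18mKO2- tissue 2 rose, Gfap and Mcl1, and 1 fell, Vim, with a median of 0.05 beside -0.02 over all genes. Vim encodes vimentin, a filament of radial glia, and was the most abundant of the list by TPM. It stood at 1190, 1040 and 1140 CPM in E13.5 p18mKO2-, at 668, 743 and 480 in E13.5 p18mKO2+, at 519, 528 and 372 in E16.5 p18mKO2- and at 467, 546 and 443 in E16.5 p18mKO2+. The E13.5 p18mKO2- libraries lay above all others. Vim fell with stage by 1.25 ± 0.18 in p18mKO2- tissue (edgeR adjusted p = 0.000181), and with p18 at E13.5 it was lower by a log2 change of -0.84 ± 0.18 (edgeR adjusted p = 0.0102), which was -0.74 with the ribosomal RNA covariate (0.0562) and -0.67 without the libraries of both sexes (0.058).

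For each of the 6 genes called in any comparison, the genes whose profile over the 12 libraries lay nearest were found among 10326 genes of at least 5 TPM, by the root mean square difference of log2 CPM centred on each gene's mean. Nearest to Cntfr were Dll1 at 0.168, Myb at 0.19 and Chek1 at 0.193, where the spread of Cntfr itself was 0.789. Nearest to Jak2 were Fnbp1l at 0.0924, Cxadr at 0.0963 and Pnpla8 at 0.0987, with a spread of 0.496 for Jak2. Jak1 had Cyld at 0.088, Exoc3 at 0.0903 and Selenoi at 0.0938, and Stat3 had Prag1 at 0.243, Spata13 at 0.263 and Ppard at 0.273. The sparsely read genes had more distant neighbours: Prkaa2 at 0.345, Jazf1 at 0.347 and Spock2 at 0.499 for Osmr, and Xylb at 0.655, Zic5 at 0.682 and Tube1 at 0.685 for Clcf1. The points share their libraries, and the distances are a description.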

How the data were processed

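RNA-seq of polyadenylated RNA was made with a directional kit, per the labels' protocols. Tools named in the submitters' processing notes are RSEM 1.2.31, STAR 2.7.2b and cutadapt 3.4, with the build GRCm38 (mm10), and neither annotation release nor strand setting is stated there. Each gene has a deposited expected count, in which multi-mapped reads are shared between genes, with its posterior standard deviation, per the file headers. TPM and an abundance-weighted length were also deposited, per the file headers. The posterior standard deviation was 0 in every library for all of the 9 genes but Clcf1, where it reached 1.02 reads. TPM divides by the estimated length, so that a changed transcript estimate moves TPM where counts do not.

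Expected counts were rounded, filtered with filterByExpr, TMM-scaled and fitted by quasi-likelihood in edgeR 4.0.16 under R 4.3.3, with the 4 group means over the 12 libraries, leaving 8 residual degrees of freedom and a common biological coefficient of variation of 0.311. Each SE was obtained from the F statistic, as log2 change over its root, and 95% intervals use the t quantile of the fit. p-values were adjusted by Benjamini-Hochberg over 16798 genes. Symbols, coordinates and transcripts came from GENCODE M21, which held 55227 of the 55487 identifiers. The pipeline was tested on simulated counts, with 95 to 99 genes changed at each size in each comparison. It called 15.3 to 42.7% of 2-fold and 44.4 to 71.4% of 4-fold changes in the right direction, and 3.3 to 7.7% of its calls were false. A gene that was not called may thus still have changed.

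The 9 genes and the lists were chosen with earlier results of these data known. Named were the 9 genes, up to 6 called genes of the pathway lists per comparison by smallest p with the most abundant other gene of each list, 3 nearest profiles for each called gene, and 2 genes per marker list; the other called list genes are named without values. Lists are described by counts, with no test of their own, and 1 gene of the ligand list is not reported here and was left out of its counts. The alternatives tried were limma-voom (limma 3.58.1), DESeq2 1.42.0, RLE scaling, a mean CPM of at least 5 or no filter, replicate blocks, the 6 libraries compared alone and leaving out each library. Chosen after seeing the data were omission of libraries holding transcripts of both sexes and covariates for Y-linked expression and for the ribosomal RNA gene. Libraries of a group differed by more than sampling noise, so all were counted. Figures were drawn with matplotlib 3.10.9.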

Additional observations from a re-analysis of the deposited data

Results flagged for a closer look

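The effect of p18 differed between the stages for 2 of the 9 genes by the interaction term of the edgeR fit, among 2.7% of all genes tested. For Cntfr the E16.5 effect exceeded the E13.5 effect by 0.93 (log2, SE 0.18, edgeR adjusted p = 0.0181). The E13.5 effect was -0.56, and the E16.5 effect of 0.37 was not called. At each stage 3 of 3 p18mKO2+ libraries lay on 1 side of every p18mKO2- library, but the share of all genes that do so was not counted. For Jak2 the difference was -0.87 (SE 0.19, edgeR adjusted p = 0.0281), from 0.77 at E13.5 to -0.09 at E16.5, where the groups overlapped. Cntfr kept its call in 17 of 21 alternatives and Jak2 in 13 of 21. In the same fit 3 of 12 radial glia markers (Emx2, Hes5 and Sox2) were called with a positive difference and 3 of 10 neuron markers (Dcx, Map2 and Mapt) with a negative one, and their part in the difference was not tested.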

How the results depend on the processing

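Over all alternatives, 1305 values of named genes were recomputed: 51 calls were lost, 7 were gained, 84 uncalled values crossed 0 within 1 SE, and 1 changed sign beyond it, the uncalled p18 effect of Socs3 at E16.5, which was 0.60 (SE 0.35) with the ribosomal RNA covariate. Of the 9 genes, the number called for p18 at E13.5 was 2 and became 1 with the ribosomal RNA covariate or without the libraries of both sexes, and ranged from 1 to 3 on leaving out single libraries. For stage in p18mKO2- it was 6 and became 3 in a fit of the 6 libraries alone, 3 to 5 on leaving out single libraries, and 4 at a mean CPM of at least 5, which leaves Clcf1, Ctf1 and Osmr untested. For stage in p18mKO2+ it was 1 in every analysis, and for p18 at E16.5 it was 0 in every analysis. For the difference between stages it was 2, and became 0 without the libraries of both sexes and 0 to 2 on leaving out single libraries. The cause of these shifts was not tested, and fits that leave out libraries also rest on fewer of them.

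Among all genes, calls for p18 at E13.5 were 1810, and 796 without the libraries of both sexes, 947 with the Y-linked covariate, 729 with the ribosomal RNA covariate and 927 to 1805 on leaving out single libraries. For p18 at E16.5 they were 0, and 13 with DESeq2, 2 with limma-voom, 81 with no filter, 1 without the libraries of both sexes and 0 to 1 on leaving out single libraries. For stage in p18mKO2+ they were 275, and 796 with DESeq2, 970 with no filter, 622 in a fit of the 6 libraries alone, 116 without the libraries of both sexes, 154 with the Y-linked covariate and 76 to 366 on leaving out single libraries. For the difference they were 453, and 1065 with DESeq2, 1168 with no filter, 149 without the libraries of both sexes and 124 to 525 on leaving out single libraries. For stage in p18mKO2- all counts stayed within 1.5 times of 5005.

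The labels do not say whether replicate numbers pair the libraries, and deviations from the group means did not settle it. At E13.5 same-numbered libraries correlated at 0.015, -0.006 and 0.027, within the range of different-numbered pairs there (-0.114 to 0.099). At E16.5 same-numbered libraries correlated at 0.102, 0.061 and 0.15, above every different-numbered pair there (-0.122 to 0.044). Between the stages the same-numbered values were 0.017, 0.103 and 0.205 in p18mKO2- and 0.031, -0.069 and -0.001 in p18mKO2+. Over all of these, pairs of different numbers ran from -0.152 to 0.099. With the replicate number as a block, calls over all genes were 2369 for p18 at E13.5, 547 for stage in p18mKO2+ and 767 for the difference, and among the 9 genes Jak1 was added for p18 at E13.5. Depth limits Clcf1 (0 to 41 reads), Osmr (1 to 82) and Ctf1 (22 to 49), whose intervals span several-fold changes.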

Other observations

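Replicate 3 was the library with the least Il6st in 3 of 4 groups and with the least Jak1 in 3 of 4, beside 4 of 4 for Stat3. It was the lowest in 2 of 4 groups for Clcf1, Ctf1, Jak2 and Socs3 and in 1 of 4 for Cntfr and Osmr. Lif, another gp130 cytokine, was too sparse to test, with 5, 7 and 0 reads in E13.5 p18mKO2-, 0, 1 and 5 in E13.5 p18mKO2+, 0, 16 and 0 in E16.5 p18mKO2- and 0, 1 and 0 in E16.5 p18mKO2+. The 16 reads of 1 library, E16.5 p18mKO2- replicate 2, were thus the most in the series. S100b, a calcium-binding protein gene of astrocytes, had 0, 0 and 0, then 15, 0 and 0, then 4, 0 and 7, then 8, 5 and 0 reads in the same order, so that all its E13.5 reads came from p18mKO2+ replicate 1.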
